A study of Mus musculus with 9 samples.

Results

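GABA receptor subunits were described here in the retina of rd10 mice, a model of inherited photoreceptor degeneration, and of wild-type mice. The genes were Gabra2, Gabra3, Gabrb1, Gabrb2, Gabrr1, Gabrr2 and Gabbr1. They were chosen by gene symbol and are 7 of the 22337 genes in the expression table. GABA-A receptors are chloride channels assembled from alpha, beta, gamma and related subunits, and the rho subunits form the slowly closing GABA-C type of channel that is prominent on bipolar cell terminals. GABA-B receptors are G protein-coupled dimers, in which the product of Gabbr1 binds GABA and the product of Gabbr2 couples to the G protein. In the retina GABA is the transmitter of many amacrine cells and of horizontal cells, and its receptors shape the signals that bipolar and ganglion cells pass on.

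RNA-seq was measured in retinas taken at P28 from 3 groups of 3 libraries each. WT mice were C57BL/6J and received no injection, while rd10 mice carry a mutation of Pde6b, the gene of a rod phosphodiesterase subunit, and were given either normal saline (NS) or MSC-EVs. MSC-EVs are extracellular vesicles released by mesenchymal stem cells of human umbilical cord, and both agents were injected into both eyes as 1 μl at P14 and again at P21. The rd10 groups were littermates, whereas WT mice came from another supplier, so that genotype, supplier and injection cannot be told apart in comparisons with WT. The estimated counts summed to between 19491717 and 28545619 in 8 libraries and to 62532343 in MSC-EVs replicate 3. Nothing in the labels says that the libraries came from separate animals, so p-values measure only the spread between these samples.

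The libraries carried the marks of the genotype in their labels. Pde6b stood at 2490, 2410 and 2610 CPM (counts relative to library size, scaled by the trimmed mean of M-values, TMM) in the WT libraries, at 536, 615 and 450 in NS-treated rd10 and at 472, 594 and 715 in MSC-EVs-treated rd10. All 8 rod markers were below WT in NS-treated rd10, with a median log2 fold change of -1.69, and the rod markers summed to between 69300 and 74600 CPM in WT and between 13900 and 20400 CPM in rd10. Y-linked genes were detected in 2 libraries, MSC-EVs replicates 1 and 2, where 4 genes summed to 183 and 188 CPM against at most 0.501 CPM elsewhere. Markers of the retinal pigment epithelium and ciliary body, 7 genes that were all detected and led by Ttr, summed to 256, 175 and 186 CPM in NS replicates 1 and 3 and MSC-EVs replicate 3, and to between 38.5 and 77.8 CPM in the other 6 libraries.

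Per length, Gabbr1 and the rho subunits were the most abundant of the 7 genes and Gabrb1 the least. In WT, the mean FPKM (fragments per kilobase of transcript, scaled to library depth, mean ± SD, n = 3) was 54.5 ± 0.945 for Gabbr1, followed by 48.8 ± 1.07 for Gabrr1, 28.9 ± 1.89 for Gabrr2 and 15.4 ± 0.551 for Gabra3. The remaining levels in WT were 4.94 ± 0.348 FPKM for Gabrb2, 2.46 ± 0.251 for Gabra2 and 1.21 ± 0.0666 for Gabrb1, and no neighbours in this order overlapped in WT. In NS-treated rd10 the same order held by group mean, but Gabbr1 overlapped with Gabrr1 and Gabrb2 overlapped with Gabra2. In MSC-EVs-treated rd10 only Gabbr1 and Gabrr1 overlapped among neighbours, with 65.75 to 66.91 FPKM for Gabbr1 and 56.37 to 66.7 FPKM for Gabrr1.

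**Figure D1:**
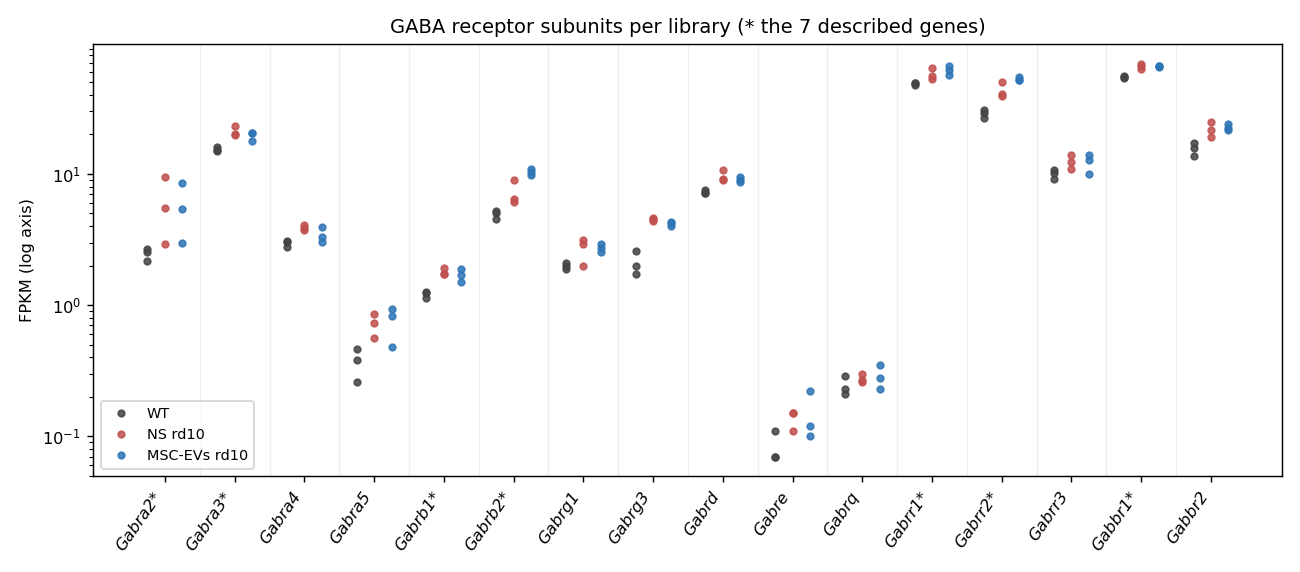
FPKM on a log axis for 16 GABA receptor subunit genes, one point per library and 3 libraries per group, with the 7 genes described here marked by a star. Gabbr1, Gabrr1 and Gabrr2 lie between 26.83 and 69.23 FPKM, while Gabrb1 reaches at most 1.92 FPKM in every library.

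In NS-treated rd10 retinas, 4 of the 7 genes were higher than in WT under TMM scaling: Gabra3, Gabrb1, Gabrb2 and Gabrr2. Their rises were small, between 1.2-fold and 1.33-fold, and none of these 4 calls remained when libraries were scaled to inner retinal neuron markers. This comparison asks how the retina of rd10 differs from WT at the end of the fast phase of rod loss. The test was edgeR's quasi-likelihood test with Benjamini-Hochberg adjustment over 14644 genes, and a gene was called at an adjusted p under 0.05. The background was high, since 31.2% of all tested genes were called higher and 30.1% lower. With a further fold limit, a log2 change of 1 or more in size, none of the 7 genes was called, against 12.7% of all genes. An unadjusted p under 0.05 was found for 4 of the 7 and for 65% of all genes. By limma all 7 were called higher on log2(FPKM + 1) and on log2(FPKM + 0.1), where 40% and 40.1% of all genes were.

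A second scaling was run because these values are shares of each library's RNA, and rod RNA, a large share in WT, differed between the groups. When libraries were scaled to 32 markers of bipolar, horizontal, amacrine and ganglion cells, the median log2 fold change of all genes moved from 0.0053 to -0.28, and that of the 7 genes from 0.32 to 0.035. On that scale 0 of the 7 genes were called higher, where 15.1% of all genes were, and 1 was called lower, where 47.9% of all genes were. The one lower gene was Gabrr1, whose log2 fold change was -0.23 ± 0.085 (SE; adjusted p = 0.0232, edgeR). Under TMM scaling 18 of the 32 markers themselves were higher in NS-treated rd10, with a median of 0.28, close to that of the 7 genes. In bulk tissue, a change in the number of cells of a type and a change in RNA per cell cannot be told apart.

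**Figure D2:**
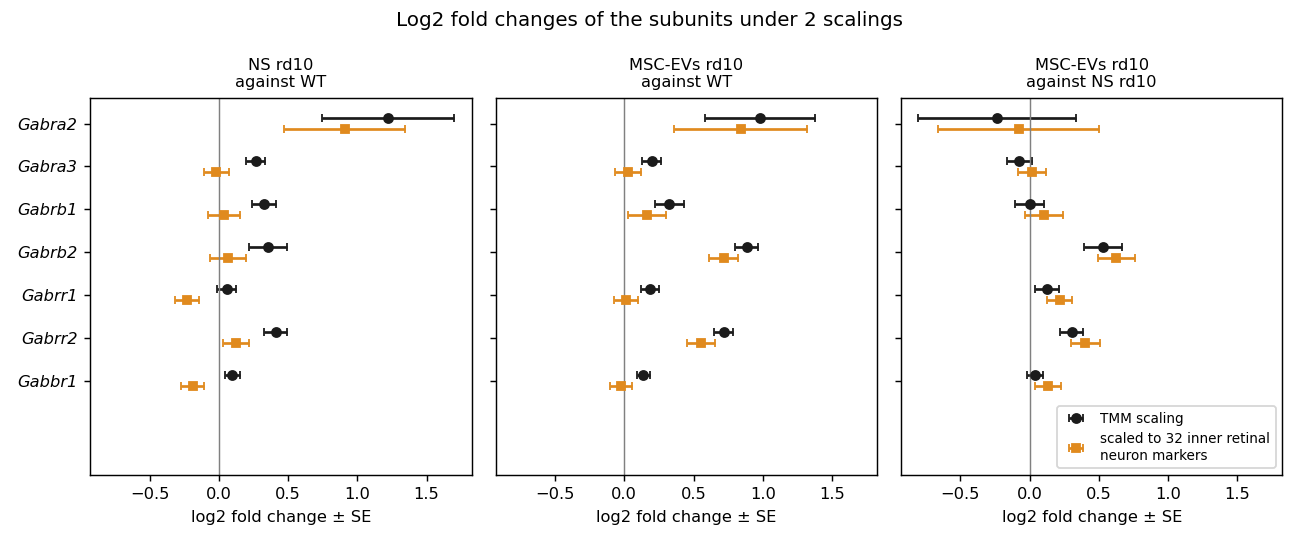
Log2 fold change ± SE (horizontal axis) of each of the 7 genes in 3 comparisons of 3 libraries against 3, with circles for TMM scaling and squares for scaling to inner retinal neuron markers. In both comparisons with WT the squares lie to the left of the circles for all 7 genes, and Gabrr2 and Gabrb2 keep the largest distance from 0 in MSC-EVs-treated rd10 apart from the widely spread Gabra2.

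The rho subunits lie next to each other on chromosome 4, and Gabrr2 was called higher in NS-treated rd10 while Gabrr1 was not, a difference that was tested only through their shares. Gabrr2 spans 33062999 to 33095865 and Gabrr1 33132521 to 33163588 (GENCODE M21 on GRCm38, both on the plus strand), with 36655 bases between them. The TMM-scaled CPM of Gabrr2 was 59.9, 53.1 and 60.6 in the WT libraries, 73.3, 70.7 and 86.7 in NS-treated rd10, and 98.6, 92.4 and 93.1 in MSC-EVs-treated rd10. None of the 3 groups overlapped with another. Gabrr1 stood at 123, 117 and 123 CPM in WT, at 124, 115 and 138 in NS-treated rd10 and at 136, 124 and 149 in MSC-EVs-treated rd10. Here NS-treated rd10 overlapped with both other groups, while the MSC-EVs libraries all lay above WT.

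The log2 fold change of Gabrr2 in NS-treated rd10 against WT was 0.41 ± 0.08 (SE; adjusted p = 8.32e-04, edgeR), which became 0.12 ± 0.095 with adjusted p = 0.276 when scaled to inner retinal neuron markers. For Gabrr1 it was 0.056 ± 0.067 (adjusted p = 0.481, edgeR), with the sign turned under the inner retinal scaling as given above. A measure that no library scaling can move is the share of each gene in the summed FPKM of Gabrr1, Gabrr2 and Gabrr3. The share of Gabrr2 was 33.6%, 31.7% and 33.4% in WT, 37.3%, 38.4% and 39.4% in NS-treated rd10 and 41.8%, 43.9% and 39.4% in MSC-EVs-treated rd10. All 6 rd10 libraries lay above the 3 WT libraries. The mean share of Gabrr1 was 55.7% in WT, 50.8% in NS-treated rd10 and 48.7% in MSC-EVs-treated rd10, and that of Gabrr3, the third rho gene, was 11.4%, 10.9% and 9.63%. The difference in the Gabrr2 share was 5.43 percentage points between NS-treated rd10 and WT and 8.79 points between MSC-EVs-treated rd10 and WT. In each case the two-sided exact permutation test gave p = 0.1, the smallest that 3 libraries against 3 allow, with an adjusted p of 0.21 over the 21 share comparisons computed for the 7 genes. These shares were chosen as a measure after the values were seen.

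**Figure D3:**
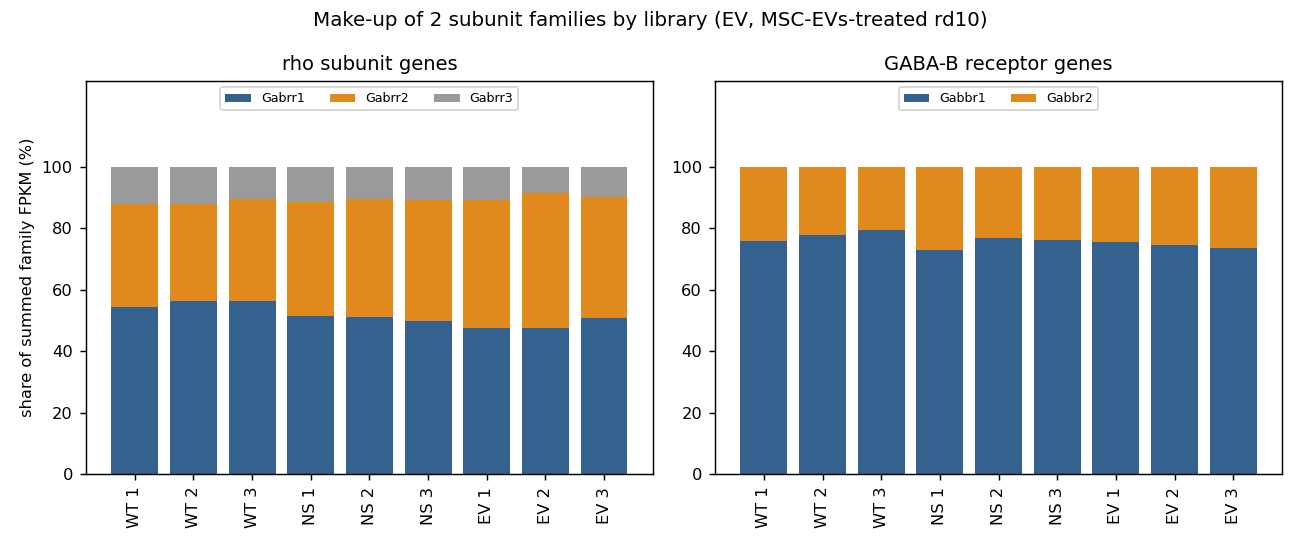
Stacked bars give the share of each gene in the summed FPKM of the rho subunit genes and of the GABA-B receptor genes (vertical axis, percent) in each of the 9 libraries. The Gabrr2 band is between 31.7% and 33.6% in WT and between 37.3% and 43.9% in rd10, while the Gabbr1 band overlaps between WT and NS-treated rd10.

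The upstream sequences of the rho pair are shown because these genes are neighbours on chromosome 4 and among the most abundant of the 7 per length. They precede the outermost annotated start, on the strand of the gene and read 5′ to 3′ (RefSeq, GRCm38.p6), for Gabrr2 at chr4:33062862-33062998 and for Gabrr1 at chr4:33132321-33132520. Capitals mark matches on either strand to any of 3 motifs. The first is TAATCC, the core bound by CRX and OTX2, factors of photoreceptors and bipolar cells. The second is GGGCGG, known as the GC box. The last is TATAAA, the motif of the classical core promoter.
Gabrr2: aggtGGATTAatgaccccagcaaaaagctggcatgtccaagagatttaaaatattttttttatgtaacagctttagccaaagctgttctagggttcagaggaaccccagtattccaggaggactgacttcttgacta
Gabrr1: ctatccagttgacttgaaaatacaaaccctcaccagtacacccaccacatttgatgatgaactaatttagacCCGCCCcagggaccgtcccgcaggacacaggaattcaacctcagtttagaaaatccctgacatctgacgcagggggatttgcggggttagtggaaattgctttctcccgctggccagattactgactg
The stretch of Gabrr2 held 1 match to TAATCC, in its reverse form GGATTA, and no GC box, with a GC content of 40.9%. The stretch of Gabrr1 held 1 GC box, in its reverse form CCGCCC, and no TAATCC, with a GC content of 49.5%. The RefSeq promoter windows of 300 bases, which run past the start, held 1 TAATCC and 0 GC boxes for Gabrr2 and 0 TAATCC and 3 GC boxes for Gabrr1. Among all 32851 such windows, longer than the stretches printed here, 7.06% held TAATCC, 35.7% the GC box and 13.6% TATAAA. A match describes letters and not a bound site. Of the 2055 distinct 50-base stretches in the annotated transcripts of Gabrr2, 57 (2.77%) also occur in Gabrr1, and reads from those stretches cannot be assigned to one of the pair.

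Gabrb2, a beta subunit of GABA-A receptors, was at its highest in MSC-EVs-treated rd10. Its TMM-scaled CPM was 22.7, 21.5 and 19.8 in WT, 33.7, 23.2 and 24.5 in NS-treated rd10, and 39.8, 36.6 and 41.1 in MSC-EVs-treated rd10. The 3 groups did not overlap, although NS replicates 2 and 3 lay close to WT and replicate 1 far from it. In NS-treated rd10 against WT the log2 fold change was 0.35 ± 0.14 (SE; adjusted p = 0.0458, edgeR). Without NS replicate 1 it was 0.15 with adjusted p = 0.182, and it also missed the threshold without any one of the WT libraries. Gabrb2 lies on chromosome 11 at 42419757 to 42629028, on the plus strand. The 50-base stretches of its transcripts occurred in no other gene.

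Gabrb1 and Gabra3 rose slightly in NS-treated rd10 against WT under TMM scaling and lost the call under the inner retinal scaling, where the sign of Gabra3 turned. The CPM of Gabrb1 was 16.8, 18.3 and 18.7 in WT, 23.6, 20.9 and 22.7 in NS-treated rd10 and 22.3, 24.9 and 20.1 in MSC-EVs-treated rd10. The rd10 libraries all lay above WT, and the rd10 groups overlapped. Its log2 fold change in NS-treated rd10 was 0.32 ± 0.087 (SE; adjusted p = 0.00631, edgeR), and 0.035 (adjusted p = 0.806) under the inner retinal scaling. Gabrb1 encodes another beta subunit and starts on chromosome 5 at 71658113, where 46 exonic bases are shared with Gabra4 on the opposite strand. The counts were made from a kit described without strand marking, so reads in these bases cannot be told apart.

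Gabra3, the alpha3 subunit gene on the X chromosome (72432681 to 72656848, minus strand), stood at 63.4, 59.4 and 59.4 CPM in WT, at 70.2, 68.7 and 80.7 in NS-treated rd10 and at 72.6, 62.7 and 72.6 in MSC-EVs-treated rd10. All NS libraries lay above WT, while MSC-EVs replicate 2 lay within the WT range. The log2 fold change in NS-treated rd10 was 0.27 ± 0.069 (SE; adjusted p = 0.00513, edgeR), against -0.018 ± 0.089 (adjusted p = 0.874) under the inner retinal scaling. With Y-linked expression as a covariate the difference between MSC-EVs-treated rd10 and WT was 0.26, against 0.20 without it. That fit leaves MSC-EVs replicate 3 alone for its group, since replicates 1 and 2 hold the Y-linked RNA.

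Gabra2 was the most variable of the 7 genes. Its estimated counts were 268, 318 and 280 in WT, 1428, 307 and 648 in NS-treated rd10 and 627, 931 and 916 in MSC-EVs-treated rd10. As TMM-scaled CPM these were 12, 14.2 and 14 in WT, 48.2, 15 and 29.6 in NS-treated rd10, and 26.2, 39.7 and 14.3 in MSC-EVs-treated rd10. In both rd10 groups one library stood just above the WT range and the others well above it. The highest of the 6 rd10 libraries was 3.37-fold above the lowest. Among 14223 genes with at least 10 counts in each rd10 library the median of this ratio was 1.32, and 291 genes (2.05%) had a larger one. The other members ranged from 1.11-fold (Gabbr1) to 1.77-fold (Gabrb2).

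The log2 fold change of Gabra2 was 1.22 ± 0.48 (SE; adjusted p = 0.0855, edgeR) in NS-treated rd10 and 0.98 ± 0.4 (adjusted p = 0.0866) in MSC-EVs-treated rd10, both against WT, and 0.91 and 0.84 under the inner retinal scaling. Neither passed the threshold, although no rd10 library overlapped with WT. Leaving out the lowest library gave 1.55 (adjusted p = 0.00257) without NS replicate 2 and 1.304 (adjusted p = 6.09e-04) without MSC-EVs replicate 3, so that 1 library decided each call. Leaving out the highest library of a group gave 0.73 (adjusted p = 0.089) without NS replicate 1 and 0.56 (adjusted p = 0.146) without MSC-EVs replicate 2. DESeq2's Wald test called both, with adjusted p = 0.025 and 0.0411, where it called 26% and 24.7% of all genes higher. In NS-treated rd10 the order of Gabra2 was that of the summed pigment epithelium and ciliary body markers, which stood at 256, 65.2 and 175 CPM in replicates 1, 2 and 3. In MSC-EVs-treated rd10 it was not, since these markers stood at 77.8, 69.1 and 186 CPM and replicate 3 had the least Gabra2. Their part in the result was not tested. Within the MSC-EVs group the libraries with Y-linked RNA, replicates 1 and 2, had more Gabra2 than replicate 3. With Y-linked expression as a covariate the difference from WT was 0.099, but that fit leaves replicate 3 alone for its group and describes that library only. NS replicate 1, the library with the most Gabra2, had no more than 0.501 CPM of Y-linked RNA.

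Gabra2 lies on the minus strand of chromosome 5 at 70957597 to 71095849, on the same chromosome as Pde6b, which starts at 108388391, 37292541 bases away. No exon of another gene overlapped its exons, and 42 of 7666 50-base stretches (0.548%) occurred elsewhere. The 200 bases before its start, at chr5:71095850-71096049 on the minus strand, are shown because it varied most, with the same motifs in capitals.
Gabra2: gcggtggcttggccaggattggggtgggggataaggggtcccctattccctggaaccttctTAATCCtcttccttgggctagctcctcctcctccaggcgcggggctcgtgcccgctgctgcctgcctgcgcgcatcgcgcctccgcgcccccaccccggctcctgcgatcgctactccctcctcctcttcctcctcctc
This stretch held 1 match to TAATCC and no GC box, with a GC content of 68%. The RefSeq window of 300 bases around it held the same number of TAATCC matches, 1, and 2 GC boxes. All 7 genes had a RefSeq promoter window, 11 windows in all.

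Gabbr1 was the steadiest member. Its TMM-scaled CPM was 247, 243 and 238 in WT, 266, 245 and 269 in NS-treated rd10, and 265, 263 and 271 in MSC-EVs-treated rd10. NS replicate 2 lay within the WT range, and the MSC-EVs libraries all lay above it. In NS-treated rd10 against WT its log2 fold change was 0.097 ± 0.055 (SE; adjusted p = 0.145, edgeR), and -0.19 ± 0.083 (adjusted p = 0.0566) under the inner retinal scaling. Without NS replicate 2 it was 0.14 and passed (adjusted p = 0.0383). Gabbr1 lies on chromosome 17 at 37045966 to 37075067, on the plus strand. Its share in the summed FPKM of both GABA-B receptor genes was 75.9%, 77.7% and 79.6% in WT, 72.9%, 76.8% and 76.1% in NS-treated rd10 and 75.7%, 74.7% and 73.5% in MSC-EVs-treated rd10. The MSC-EVs libraries lay below WT and the NS libraries overlapped with both. Its partner Gabbr2 was called higher in NS-treated rd10, with 0.31 ± 0.11 (adjusted p = 0.0419), and not under the inner retinal scaling (0.02, adjusted p = 0.871).

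**Figure D4:**
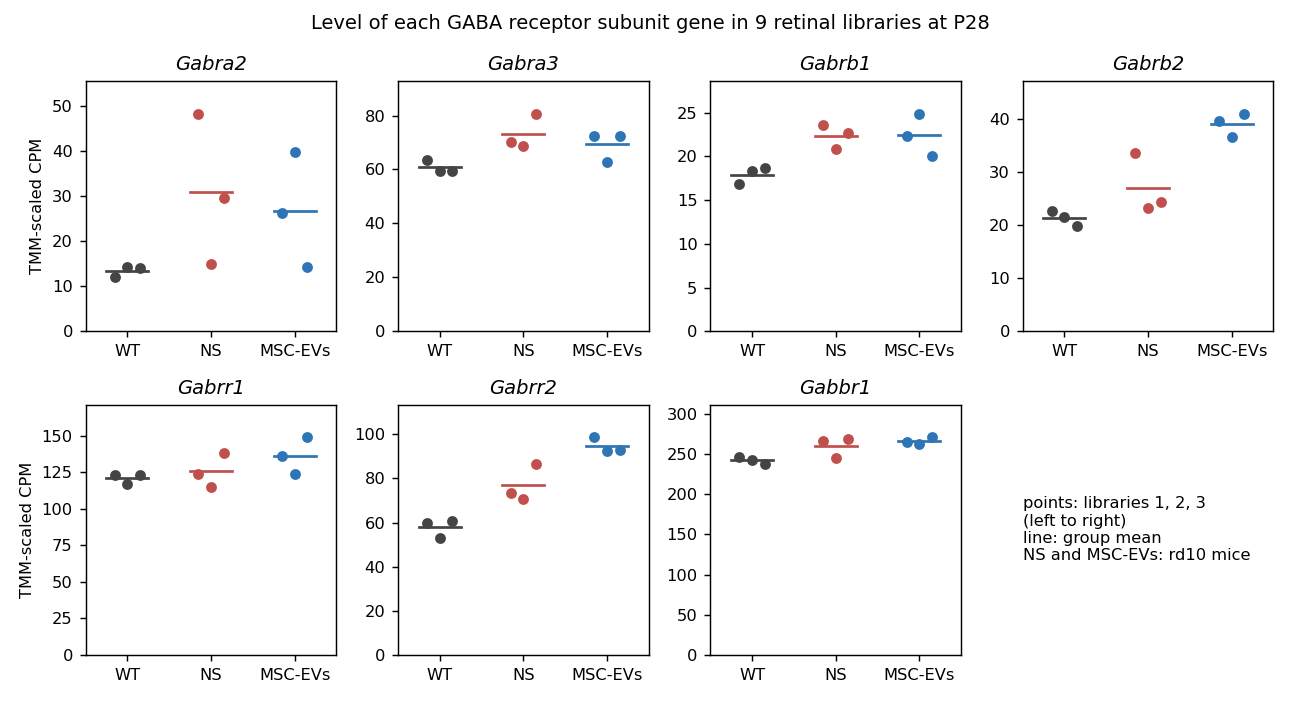
TMM-scaled CPM (vertical axis, from 0) of each of the 7 genes in the 9 libraries, with a line at each group mean. Gabrr2 and Gabrb2 step up by group mean from WT to NS-treated to MSC-EVs-treated rd10, Gabra2 spreads from 14.3 to 48.2 CPM in rd10, and Gabbr1 stays between 238 and 271 CPM.

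Between MSC-EVs-treated and NS-treated rd10 none of the 7 genes passed the test. These groups differ in treatment and in part in Y-linked RNA. That RNA stood at 183 and 188 CPM in MSC-EVs replicates 1 and 2 and at most at 0.489 CPM in the NS libraries. Its part and that of the vesicles cannot be fully told apart. Of the 7 genes, the 2 closest to the threshold were Gabrb2 and Gabrr2. Their libraries did not overlap between these groups, but the share of all genes without overlap was not counted. The log2 fold change of Gabrb2 was 0.53 ± 0.14 (SE; adjusted p = 0.0889, edgeR), a fold of 1.44, and under the inner retinal scaling it was 0.63 ± 0.14 (adjusted p = 0.0518). That of Gabrr2 was 0.30 ± 0.084 (adjusted p = 0.0958), a fold of 1.23, and 0.40 ± 0.1 (adjusted p = 0.0774) under the inner retinal scaling. These 2 genes had an unadjusted p under 0.05, as did 20.2% of all genes. DESeq2's Wald test called Gabrb2 and Gabrr2, with adjusted p = 0.00837 and 0.0308. EdgeR with all 9 libraries in one fit also called both (adjusted p = 0.0307 and 0.0455), and limma on FPKM called 0 of the 7. Gabrb2 alone was called by edgeR with the replicate block (0.55, adjusted p = 0.0464) and without NS replicate 1 (0.72, adjusted p = 0.024). The background differed between these fits. With the replicate block 403 genes were called in either direction, and the number for the fit without NS replicate 1 is not given here. The pairwise edgeR fit, which called none of the 7, called 0.914% of 14765 genes higher and 0.251% lower, and 0.061% with the fold limit. DESeq2 called 5.32% of its genes higher and the fit of all 9 libraries 4.28%, while limma called 0.0385% on log2(FPKM + 1) and 0.0513% on log2(FPKM + 0.1) in either direction.

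The other 5 genes lay further from the threshold. Their log2 fold changes were -0.24 ± 0.57 for Gabra2, -0.074 ± 0.088 for Gabra3, 5e-04 ± 0.1 for Gabrb1, 0.12 ± 0.089 for Gabrr1 and 0.038 ± 0.06 for Gabbr1. The sign turned for Gabra3 under the inner retinal scaling, for Gabrb1 under the upper-quartile scaling among others, and for Gabra2 and Gabbr1 without single libraries. With Y-linked expression as a covariate, which leaves MSC-EVs replicate 3 alone for its group, Gabra2 stood at -1.10. In that fit Gabrb2 stood at 0.61 and Gabrr2 at 0.28.

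Retinal cell markers were compared between the rd10 groups as well, and 1 of the 32 inner retinal neuron markers passed the adjusted test. This was Pcp2, a gene of bipolar cells, at 82.6, 86.2 and 97.4 CPM in NS-treated and 65.9, 63.7 and 69.6 CPM in MSC-EVs-treated rd10, without overlap. Its log2 fold change was -0.41 ± 0.079 (SE; adjusted p = 0.0451, edgeR). The call was lost under the inner retinal scaling (-0.32, adjusted p = 0.128), in both limma fits (adjusted p = 0.0521 and 0.0516) and without NS replicate 2 or 3 or MSC-EVs replicate 1 or 3 (adjusted p from 0.0526 to 0.2). With the Y-linked covariate, which leaves MSC-EVs replicate 3 alone for its group, the value was -0.35. At an unadjusted p under 0.05 stood 5 of 10 bipolar, 3 of 10 amacrine, 1 of 4 horizontal, 4 of 8 ganglion cell, 5 of 8 cone and 4 of 7 Müller glia markers, where 20.2% of all genes did. All 5 of the cone, all 4 of the ganglion cell and all 4 of the Müller glia markers had values below 0. The medians of these lists were -0.27, -0.20 and -0.16. The median of the amacrine markers was -0.21, with Pax6 at -0.24, Tfap2a at -0.31 and Slc17a8 at 0.22. Of the bipolar markers at this limit only Trpm1 was above 0, at 0.26, while Pcp2, Grm6, Scgn and Sebox stood at -0.41, -0.35, -0.26 and -0.22. The part of these markers in the values of Gabrb2 and Gabrr2 was not tested beyond the inner retinal scaling.

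Against WT, MSC-EVs-treated rd10 showed 6 of the 7 genes higher under TMM scaling, all but Gabra2, and 2 of the 7, Gabrb2 and Gabrr2, under the inner retinal scaling, where the sign of Gabbr1 turned. The log2 fold change of Gabrb2 was 0.88 ± 0.083 (SE; adjusted p = 1.91e-05, edgeR) and 0.72 ± 0.11 (adjusted p = 2.23e-05) under the inner retinal scaling. For Gabrr2 the values were 0.72 ± 0.066 (adjusted p = 1.73e-05) and 0.55 ± 0.1 (adjusted p = 2.04e-04). The background was 28.3% of 14623 genes higher, 27.2% lower and 12.2% past the fold limit, which none of the 7 passed with a call. Under the inner retinal scaling 17.3% of genes were higher and 37.4% lower. The remaining calls were small: 0.33 for Gabrb1, 0.20 for Gabra3, 0.18 for Gabrr1 and 0.14 for Gabbr1 on the log2 scale, with adjusted p between 0.021 and 0.0376. Leaving out single libraries left 2 to 4 of the 6 calls. The calls of Gabra3 and Gabrr1 were also lost with all 9 libraries in one fit (adjusted p = 0.0553 and 0.0673, edgeR). That of Gabbr1 was lost with the replicate block (adjusted p = 0.05975, edgeR). With Y-linked expression as a covariate, which leaves MSC-EVs replicate 3 alone for its group, Gabrb1 stood at 0.17 and Gabbr1 at 0.15. In that fit Gabrb2 stood at 0.94 and Gabrr2 at 0.69. This comparison shares its WT libraries with the first and its MSC-EVs libraries with the second.

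The other GABA receptor subunits gave the 7 genes their setting. Of 14 further subunit genes, 12 had enough counts to be tested, and Gabra6 and Gabrp were at 0 counts in all 9 libraries, which allows up to 3 counts in each. In NS-treated rd10 against WT 6 of the 12 were higher and 0 lower under TMM scaling, with a median log2 fold change of 0.35, and 2 were higher under the inner retinal scaling. Over all genes 31.2% were higher and 30.1% lower, and 15.1% were higher under the inner retinal scaling. Among the 12, the gamma subunit gene Gabrg3 had the largest change, by 1.23 ± 0.1 (SE; adjusted p = 7.96e-07, edgeR), and by 0.94 ± 0.12 under the inner retinal scaling. Its CPM was 30.3, 25.9 and 31.6 in NS-treated rd10 against 11.4, 13.7 and 12.3 in WT, without overlap. Gabra5 followed with 0.83 ± 0.3 (adjusted p = 0.0295), on only 16 to 54 counts in these libraries. Its call was lost under the inner retinal scaling (0.53, adjusted p = 0.149), by DESeq2 (adjusted p = 0.0793) and without WT replicate 1 or 2 or NS replicate 1 or 3 (0.63 to 0.85, adjusted p from 0.0603 to 0.123). None of the 12 passed between the rd10 groups by edgeR or DESeq2, and 0 had an unadjusted p under 0.05 in edgeR.

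The genes that make, carry and break down GABA all exceeded WT in NS-treated rd10 under TMM scaling, 9 of 9, with a median log2 fold change of 0.33, and 2 of the 9 were higher under the inner retinal scaling. The shares of all genes called higher were 31.2% and 15.1%. Abat, the GABA transaminase, stood at 180, 176 and 160 CPM in WT, 287, 288 and 286 in NS-treated rd10 and 267, 249 and 237 in MSC-EVs-treated rd10. Its log2 fold change in NS-treated rd10 was 0.74 ± 0.059 (SE; adjusted p = 5.74e-07, edgeR), and 0.46 (adjusted p = 1.62e-04) under the inner retinal scaling. Slc6a13, the transporter GAT2, rose by 1.57 ± 0.29 (adjusted p = 7.2e-04; 1.29 under the inner retinal scaling) from a low level of 1.93 to 2.42 CPM to between 3.98 and 8.98 CPM. The pigment epithelium and ciliary body markers were also high in 2 of these 3 NS libraries, and their part in the level of Slc6a13 was not tested. None of the 9 passed between the rd10 groups in edgeR, where 2 had an unadjusted p under 0.05.

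Among 13 scaffold and trafficking genes of GABA-A receptors, 7 exceeded WT and 3 fell below it in NS-treated rd10, against 2 higher and 6 lower under the inner retinal scaling. Of all genes 31.2% were higher and 30.1% lower, against 15.1% and 47.9% under the inner retinal scaling. Gabarap, which carries GABA-A receptors to the membrane, was higher by 0.57 ± 0.065 (SE; adjusted p = 1.11e-05, edgeR), and by 0.28 (adjusted p = 0.0124) under the inner retinal scaling. Hap1, a trafficking partner of beta subunits, was higher by 0.54 ± 0.061 (adjusted p = 1.03e-05), while Gabarapl1, the most abundant per length, differed by -0.11 (adjusted p = 0.075) and was lower under the inner retinal scaling, at -0.39 (adjusted p = 6.46e-04). Among 11 partners of GABA-B receptors, 6 were higher and 0 lower, and 4 higher and 1 lower under the inner retinal scaling. Gnai2, a G protein alpha subunit that microglia also express, was higher by 0.78 ± 0.052 (adjusted p = 1.37e-07), Kctd12, an auxiliary subunit of the receptor, by 0.77 ± 0.069 (adjusted p = 1.58e-06), and Gnao1, the most abundant, by 0.31 (adjusted p = 8.9e-04), a call that was lost under the inner retinal scaling (0.023, adjusted p = 0.832). All 8 microglia markers were higher, with a median of 2.99 and sums of 34.3 to 36.7 CPM in WT and 199 to 350 CPM in rd10, and their part in the level of Gnai2 was not tested.

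Chloride transport sets the direction of the current through GABA-A and GABA-C channels. Of 5 genes, 3 exceeded WT and 1 fell below it in NS-treated rd10, against 0 higher and 2 lower under the inner retinal scaling. Over all genes 31.2% were higher and 30.1% lower, against 15.1% and 47.9% under the inner retinal scaling. Slc12a5, the neuronal chloride exporter KCC2 and the most abundant of the 5, differed by 0.042 ± 0.061 (SE; adjusted p = 0.566, edgeR) and by -0.24 (adjusted p = 0.0262) under the inner retinal scaling. Slc12a7 was higher by 0.50 (adjusted p = 0.00111) and the anion exchanger gene Slc4a3 by 0.45 (adjusted p = 5.98e-05), and both calls were lost under the inner retinal scaling (0.22 and 0.16, adjusted p = 0.162 and 0.112). No gene of these 3 lists passed between the rd10 groups in edgeR, where the unadjusted p was under 0.05 for 2, 2 and 0 genes.

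Markers of the cells that carry these receptors also moved under TMM scaling in NS-treated rd10, where 31.2% of all genes were higher and 30.1% lower. Of 10 bipolar cell markers 5 were higher and 2 lower, with a median log2 fold change of 0.19 (-0.096 under the inner retinal scaling) and the abundant Pcp2 at -0.047 (adjusted p = 0.539, edgeR), which was lower under the inner retinal scaling, at -0.33 (adjusted p = 0.00346). Sebox was lower, at -0.46. Of 10 amacrine cell markers 6 were higher (median 0.29), among them Pax6 by 0.56 and Slc5a7 by 0.43. Horizontal cell markers were higher in 3 of 4, with Onecut2 at 0.77 and Lhx1 at 0.62, and ganglion cell markers in 4 of 8, with Rbpms at 0.64, Pou4f1 at 0.54 and Nefl at 0.12 (adjusted p = 0.348; 0.24 with adjusted p = 0.0461 without WT replicate 1). The calls of Slc5a7 and Lhx1 were lost under the inner retinal scaling (0.14 and 0.32, adjusted p = 0.31 and 0.0864). Their part in the levels of the subunits was not tested beyond the inner retinal scaling.

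**Figure D5:**
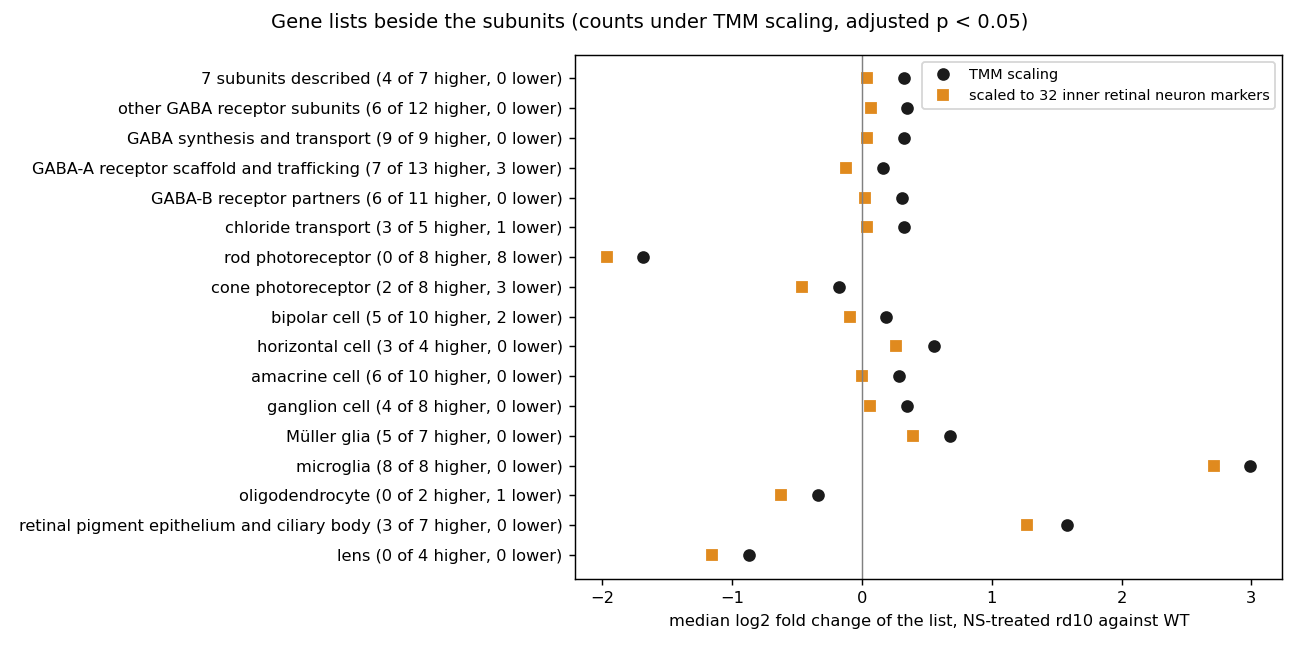
Median log2 fold change in NS-treated rd10 against WT (horizontal axis) for each gene list, with circles for TMM scaling and squares for scaling to inner retinal neuron markers, and the number of genes called under TMM scaling beside each name. The 7 subunits lie at 0.32, close to the amacrine cell markers at 0.29 and the ganglion cell markers at 0.34, and far from the rod markers at -1.69 and the microglia markers at 2.99.

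Other cell types in the tissue moved as follows in the same comparison, where 31.2% of all genes were higher and 30.1% lower. The rod transcription factor gene Nrl stood at -2.28 on the log2 scale. Of 8 cone markers 2 were higher and 3 lower, with Opn1sw at -0.58 and Opn1mw at -0.51. The call of Opn1mw (adjusted p = 0.0374, edgeR) was lost with upper-quartile factors (adjusted p = 0.0503), without a filter on low counts (0.0877), in both limma fits (0.069 and 0.0637) and without WT replicate 1 or 3 or NS replicate 2 or 3 (adjusted p from 0.0589 to 0.109). Of 7 Müller glia markers 5 were higher, Aqp4 by 1.02 and Kcnj10 by 0.84, while Glul stood at -0.03 (adjusted p = 0.853, edgeR) and was lower under the inner retinal scaling, at -0.32 (adjusted p = 0.0175). The microglia genes Cd68, Aif1 and C1qa were higher by 4.37, 3.80 and 3.54. Of the pigment epithelium and ciliary body markers 3 of 7 were higher, Dct by 2.40 and Tyrp1 by 2.11, with Ttr at 1.29 (adjusted p = 0.135; 1.68 with adjusted p = 0.0206 without NS replicate 2). The calls of Dct and Tyrp1 were lost in 5 of the 6 fits that left out 1 library, all but that without NS replicate 2, and in those 5 fits Dct stood between 1.89 and 2.62 and Tyrp1 between 1.56 and 2.43. That of Tyrp1 was also lost under the inner retinal scaling (1.78, adjusted p = 0.066). Of 5 oligodendrocyte markers 2 were tested and 1 was lower, with Mbp at 0.14 (adjusted p = 0.106). None of 4 lens markers passed in edgeR, 0 had an unadjusted p under 0.05, and Cryaa stood at -0.71 (adjusted p = 0.439).

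Genes whose levels followed those of each subunit most closely across the 9 libraries were read from Pearson's r of log2 CPM over 13696 genes. All points share the library scaling and the difference between WT and rd10, so the values are descriptions. Gabrb2 was followed by Cltc (r = 0.985), Kif3a (0.983) and Slc4a8 (0.981), and Gabrr2 by Agpat4 (0.983), Tmem132e (0.978) and Nras (0.978). Gabrr1 was followed by Gls2 (0.972), Dnajc15 (0.961) and Slc6a5 (0.95). For Gabbr1 the genes were Adgrl1 (0.986), Mapk8ip2 (0.978) and Dlgap3 (0.975), for Gabra3 Aqp11 (0.965), Hmgcll1 (0.963) and Nadk (0.961), and for Gabrb1 Atp2a3 (0.983), Ski (0.979) and E430018J23Rik (0.977). Gabra2 had the lowest top value, with Plekho2 (0.933), Ung (0.92) and Dhx40 (0.919). Among the 7 genes themselves r was highest for Gabra2 with Gabrb1 (0.902) and lowest for Gabra2 with Gabrr1 (0.131).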

How the data were processed

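RNA-seq of mouse retina was analysed for 9 libraries, 3 in each group. The authors deposited estimated counts per gene that were not scaled to library size. The FPKM values beside them had been adjusted by the authors to transcript length and sequencing depth. Per the labels the processing tools included fastp, Bowtie2, HISAT2, StringTie 1.3.1 and RSEM, without stated roles, and the genome build is not given in the sources used here. Of each library's genes, 9.16% to 11.7% carried decimals, so the counts were rounded, where the design had assumed whole counts. Columns were assigned by name, and 0 columns of other samples were present.

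Groups were compared pairwise, 6 libraries at a time, by edgeR 4.0.16 (R 4.3.3): filterByExpr, TMM, glmQLFit with robust estimation and glmQLFTest, with Benjamini-Hochberg adjustment and a threshold of 0.05. The standard error was the absolute log2 fold change divided by the square root of F. CPM values were TMM-scaled over all 9 libraries. Overlap between groups is given gene by gene as a description, and the share of all genes without overlap was not counted. The alternatives were other size factors, scaling to 32 inner retinal neuron markers, DESeq2 1.42.0, limma 3.58.1 on log2(FPKM + 1) or log2(FPKM + 0.1), other filters, one fit of all libraries, a replicate block, Y-linked expression as a covariate, a threshold of 0.01 and leaving out each library. Family shares were compared by exact permutation. EdgeR, DESeq2, limma and scaling to a fixed list were tested on simulated data. The simulation used the depths of the WT and NS libraries and a fixed spread, so it covers no comparison with MSC-EVs.

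The members, gene lists and tests were chosen with earlier results of these data known. All members were named, and from each list the gene with the highest mean FPKM and the 2 largest called changes in NS-treated rd10 against WT. Others named were chosen after their values were seen. Some genes that this rule covers are not reported here. For likeness, the 3 genes with the highest r among those with at least 10 counts in every library were taken. Positions are those of GENCODE M21 (GRCm38), where 22232 of 22337 identifiers were found. Libraries of one group differed by more than sampling noise (chi-square per degree of freedom 4.1 to 31.3), so none was counted as a duplicate.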

Additional observations from a re-analysis of the deposited data

How the results depend on the processing

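The number of the 7 genes called in NS-treated rd10 against WT was 4, and 3 to 6 when single libraries were left out. It was 1 when scaled to inner retinal neuron markers, and 7 by limma on log2(FPKM + 1) and 7 on log2(FPKM + 0.1), where 40% and 40.1% of all genes were called higher and the median of all genes was itself shifted by 0.13 in the former. Between the rd10 groups it was 0, but 2 by DESeq2's Wald test, 2 with all 9 libraries in one fit, 1 with the replicate block and 0 to 1 without single libraries. In MSC-EVs-treated rd10 against WT it was 6, but 2 under the inner retinal scaling, 2 at an adjusted p under 0.01 and 2 to 4 without single libraries. Whether replicate numbers pair the samples was not settled. Correlations of deviations between libraries of one number ran from -0.082 to 0.205. Each WT library matched its own number best among the MSC-EVs libraries. WT replicates 2 and 3 did not among the NS libraries, nor NS replicate 1 among the MSC-EVs libraries. With the replicate block 4, 1 and 5 of the 7 genes were called in the 3 comparisons. Between the rd10 groups that fit called 403 of all genes. Dct and Tyrp1 missed the threshold with the block in NS-treated rd10 against WT (adjusted p = 0.117 for both, edgeR).

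Under the inner retinal scaling the sign turned in NS-treated rd10 against WT for Gabra3 (-0.018), Gabrr1 (-0.23), Gabbr1 (-0.19), Slc12a5 (-0.24), Nefl (-0.16) and Mbp (-0.14), in MSC-EVs-treated against NS-treated rd10 for Gabra3 (0.017), and in MSC-EVs-treated rd10 against WT for Gabbr1 (-0.026). In NS-treated rd10 against WT, Pcp2 turned to 0.13 and 0.13 in the 2 limma fits, and Glul to 0.0026 with upper-quartile factors and to 0.13 and 0.13 in the limma fits. Between the rd10 groups Gabrb1, at 5e-04, turned to -0.034 with upper-quartile factors, -0.0053 without a filter, -1e-04 with at least 10 counts in every library, -0.006 with all 9 libraries, -0.0018 with the replicate block, -0.058 and -0.088 in the limma fits and -0.15 with the Y-linked covariate. The last value rests on MSC-EVs replicate 3 alone in its group. Without single libraries the ranges that crossed 0 were -0.014 to 0.11 for Gabrr1, -0.15 to 0.12 for Glul and -1.06 to 0.29 for Cryaa in NS-treated rd10 against WT, and -0.65 to 0.25 for Gabra2, -0.12 to 7e-04 for Gabra3, -0.081 to 0.076 for Gabrb1 and -0.0015 to 0.063 for Gabbr1 between the rd10 groups. The cause was not tested for any of these.

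Over all genes 172 were called between the rd10 groups, but 916 by DESeq2, 1026 with all 9 libraries, 403 with the replicate block, 6 and 8 by limma, 5 at an adjusted p under 0.01, and 0 to 676 without single libraries. It was 0 without NS replicate 3 or MSC-EVs replicate 1, 32 without NS replicate 2 and 676 without MSC-EVs replicate 2. Against WT, leaving out single libraries gave 7799 to 9110 genes called in NS-treated rd10 and 6517 to 8426 in MSC-EVs-treated rd10. The share of higher genes among those called moved from 50.8% to 24% under the inner retinal scaling and to 72.2% by limma in NS-treated rd10 against WT, from 51% to 31.6% and 71.7% in MSC-EVs-treated rd10 against WT, and from 78.5% to 98.3% and 66.7% between the rd10 groups, where upper-quartile factors gave 63%. Depth limited the low subunits: 1 count was worth 0.0156 to 0.0501 CPM, Gabra5 rested on 16 to 77 counts per library and Gabre on 7 to 26.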

Other observations

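Kctd16, an auxiliary subunit of GABA-B receptors chosen here after its values were seen, had a TMM-scaled CPM of 6.55, 5.86 and 4.61 in WT, 9.49, 3.77 and 5.63 in NS-treated rd10 and 9.97, 11.6 and 9.61 in MSC-EVs-treated rd10. The MSC-EVs libraries lay above the others, with NS replicate 1 just below them. Against NS-treated rd10 the log2 fold change of Kctd16 was 0.71 ± 0.30 (SE; adjusted p = 0.245, edgeR) and did not pass, nor did that of NS-treated rd10 against WT (0.17, adjusted p = 0.655). Against WT its log2 fold change in MSC-EVs-treated rd10 was 0.87 ± 0.16 (SE; adjusted p = 0.00108, edgeR). In that comparison 9 of the 11 GABA-B receptor partners were higher and 0 lower, and 6 higher and 1 lower under scaling to inner retinal neuron markers, against 28.3% and 17.3% of all genes higher.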
